A study of Mus musculus with 9 samples.

Results

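The olfactory bulb and the young neurons that migrate into it are marked by a small set of genes. Under this heading, 8 listed genes were examined in the forebrain of mice given an antipsychotic drug for 4 weeks. They were taken by gene symbol from the annotation of the array, and of the 8 genes listed, 6 had a probe set: Th, Gpsm1, Dcx, Eomes, Dlx1 and Dlx2, out of 8251 genes on the array, with 7 of its 12488 probe sets. Cdhr1 and Doc2g were not analysed here. All 7 probe sets passed the filter on low values, which kept 7453 probe sets for testing. The arrays were Affymetrix U74Av2 arrays, each hybridised with RNA of 1 male C57BL mouse, an inbred laboratory strain, and the values are on the log2 scale. Untreated animals gave 3 arrays, and 3 came from animals given clozapine, an atypical antipsychotic, at 12 mg/kg/day and 3 from animals given haloperidol, a typical antipsychotic, at 1.6 mg/kg/day. Animals were acclimatised for 2 weeks and drank the drug in their water, and the age given for all groups is 4 weeks. The labels name the right forebrain in one field and the left hemisphere in another, and do not state how much of the olfactory bulb the dissected piece held.

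The olfactory bulb, at the front of the forebrain, receives the axons of the smell-sensing neurons of the nose, and its projection neurons carry that input on to the cortex. Its local inhibitory neurons are replaced throughout life by neuroblasts that are born beside the lateral ventricle and migrate forward into the bulb. Eomes is a T-box transcription factor of bulb projection neurons and of cortical progenitors, Th is the rate-limiting enzyme of dopamine synthesis and marks bulb interneurons, and Dlx1 and Dlx2 are homeodomain transcription factors of inhibitory neurons and their precursors. Dcx is a microtubule-binding protein of migrating neuroblasts, and Gpsm1 is a regulator of G protein signalling.

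The regions upstream of the start sites of Th, Eomes, Dlx1 and Dlx2 are shown because these 4 genes varied together among the arrays, as described further on. RefSeq's table for GRCm38.p6 held all 8 listed genes, and 250 bases before the start are printed for each of the 4, on the strand of the gene. The windows are chr7:142899996-142900245 on the minus strand for Th, chr9:118477939-118478188 on the plus strand for Eomes, chr2:71529195-71529444 on the plus strand for Dlx1 and chr2:71546755-71547004 on the minus strand for Dlx2. Capitals mark the letters TAATT, a core of homeodomain binding sites, and TGACGTCA, the full cyclic AMP response element, found on either strand.
Th: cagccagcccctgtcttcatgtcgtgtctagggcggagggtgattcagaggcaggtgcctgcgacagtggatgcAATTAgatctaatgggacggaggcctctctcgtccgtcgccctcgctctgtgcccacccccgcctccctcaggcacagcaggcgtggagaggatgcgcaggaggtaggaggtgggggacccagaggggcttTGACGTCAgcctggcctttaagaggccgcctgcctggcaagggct
Eomes: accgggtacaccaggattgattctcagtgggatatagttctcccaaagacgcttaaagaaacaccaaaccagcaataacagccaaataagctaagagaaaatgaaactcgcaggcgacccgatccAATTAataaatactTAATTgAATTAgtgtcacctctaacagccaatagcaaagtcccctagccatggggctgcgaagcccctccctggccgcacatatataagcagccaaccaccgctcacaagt
Dlx1: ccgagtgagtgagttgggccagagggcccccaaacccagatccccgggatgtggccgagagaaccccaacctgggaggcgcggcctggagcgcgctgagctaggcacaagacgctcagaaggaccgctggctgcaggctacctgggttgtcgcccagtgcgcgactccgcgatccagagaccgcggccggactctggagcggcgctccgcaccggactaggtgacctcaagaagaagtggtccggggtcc
Dlx2: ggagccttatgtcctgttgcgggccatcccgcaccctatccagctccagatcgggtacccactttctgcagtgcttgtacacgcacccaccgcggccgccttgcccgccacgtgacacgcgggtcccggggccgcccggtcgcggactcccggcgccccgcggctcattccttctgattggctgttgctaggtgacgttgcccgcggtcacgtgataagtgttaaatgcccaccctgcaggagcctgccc
The Th window held TAATT once and TGACGTCA once, 45 bases before the start. The Eomes window held TAATT 3 times and the Dlx1 and Dlx2 windows held 0 of either. Over 32851 windows of the same length in the table, 25.0% held TAATT and 1.55% held TGACGTCA. The letters CANNTG (66.2% of windows), CCAAT (33.9%) and GGTGTGA (3.33%) were searched too: Dlx2 held CANNTG at 2 sites and CCAAT at 1, Th held CANNTG at 1 and Eomes held CCAAT at 2. These matches describe the sequence only, and no binding was measured.

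Before the members, 2 arrays need naming. Control 3 lay apart from the others on the first principal component of the tested probe sets other than the members' own (50.2% of the variance), at a score of 37.5 against -19.8 to 7.03. For the housekeeping genes Actb and Gapdh its 3' control probes exceeded its 5' ones by 1.73 log2 units on average, where the other arrays gave 0.814 to 1.46. Haloperidol 3 had pituitary hormone transcripts, with Gh at 12.57 against at most 1.28 elsewhere and Prl at 11.76 against at most 3.84. Array medians lay between 4.01 and 4.21. Those of the 3 haloperidol arrays were the lowest, at most 4.06, where the other arrays had at least 4.11. Precision is limited by the number of arrays. With 3 arrays against 3, an exact two-sided permutation test cannot give a p below 0.1, so tests below come from limma's fit across all probe sets.

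The members split the animals within the control group and within the clozapine group. In 3 animals, control 1, clozapine 2 and clozapine 3, all of Th, Dcx, Eomes, Dlx1 and Dlx2 lay lower than in the other 6. None of these 3 animals was given haloperidol. The 3 arrays were picked out from the members' own values, so their counts are a description only. They were the lowest in 6 of the 7 member probe sets and in 37 of all 7453 tested (0.496%), these 6 included. Gpsm1 was the exception. In 6 of the 7 the widest range within a treatment exceeded the range of the treatment means, as it did in 93.4% of tested probe sets. In these bulk samples, fewer cells of a type and less RNA per cell cannot be told apart.

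Among the genes of inhibitory neurons and their precursors, Dlx1 had log2 values of 6.56, 8.45 and 8.30 in the controls, 8.27, 7.004 and 7.23 with clozapine and 8.67, 7.89 and 7.91 with haloperidol, in the order of replicates 1 to 3. The 3 low arrays reached at most 7.23 and the other 6 at least 7.89. Within the untreated group alone the highest animal stood 3.72-fold above the lowest. Dlx2, its neighbour on chromosome 2, had values of 3.04, 4.25 and 4.82 in the controls, 4.23, 3.397 and 3.57 with clozapine and 4.86, 3.99 and 4.18 with haloperidol. Its lowest and highest arrays, control 1 and haloperidol 1, were those of Dlx1. The signal of Dlx2 was low, with an average only 0.59 log2 units above the filter value of 3.45.

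Th had values of 3.93, 5.78 and 5.11 in the controls, 5.86, 4.54 and 4.40 with clozapine and 5.52, 5.49 and 4.98 with haloperidol. The lowest and the highest array belonged to control 1 and clozapine 1, and the untreated animals spanned 3.61-fold. Midbrain dopamine neurons also make Th, and of 12 genes on the array listed for them and for dopamine synthesis 6 were below the filter and 6 above it. Below it, Slc6a3, the dopamine transporter, lay between 1.51 and 1.67, Pitx3, a transcription factor of those neurons, between 0.92 and 1.06, and Foxa2 between 2.05 and 2.24. Above it, Nr4a2, a nuclear receptor of dopamine and cortical neurons, ran from 5.33 in control 3 to 6.92 in clozapine 1, and Aldh1a1, a retinal dehydrogenase of some dopamine neurons, from 8.68 to 9.19. Ddc, the next enzyme of dopamine synthesis, varied little, from 4.92 to 5.28.

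Eomes had 2 probe sets, and both placed the same 3 arrays lowest. Probe set 1 gave 3.76, 5.56 and 5.36 in the controls, 5.17, 3.79 and 4.06 with clozapine and 5.78, 5.17 and 4.92 with haloperidol. It left the widest step of all members between the 3 low arrays and the others, from 4.06 to 4.92. Probe set 2 gave 4.03, 4.70 and 5.04 in the controls, 4.50, 4.06 and 3.87 with clozapine and 4.75, 4.44 and 4.23 with haloperidol. Its step was smaller, from 4.06 to 4.23.

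Dcx, the neuroblast marker, had values of 5.86, 6.51 and 6.02 in the controls, 6.27, 5.23 and 5.31 with clozapine and 6.52, 6.06 and 6.01 with haloperidol. Control 1 stood closer to the other arrays here than in the bulb genes, with a step of only 0.158 log2 units above it. Clozapine 2 and clozapine 3 were the lowest of the 9.

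Gpsm1 varied little, with values of 3.66, 3.73 and 3.66 in the controls, 3.63, 3.78 and 3.62 with clozapine and 3.57, 3.56 and 3.43 with haloperidol. It lay 0.18 log2 units above the filter value. Its highest array, clozapine 2, and its lowest, haloperidol 3, were also the highest and the lowest in the 4969 probe sets below the filter, whose median relative to the 9-array mean was 0.114 and -0.117 there. Whether Gpsm1 carried a signal of its own above that floor was not tested.

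**Figure D1:**
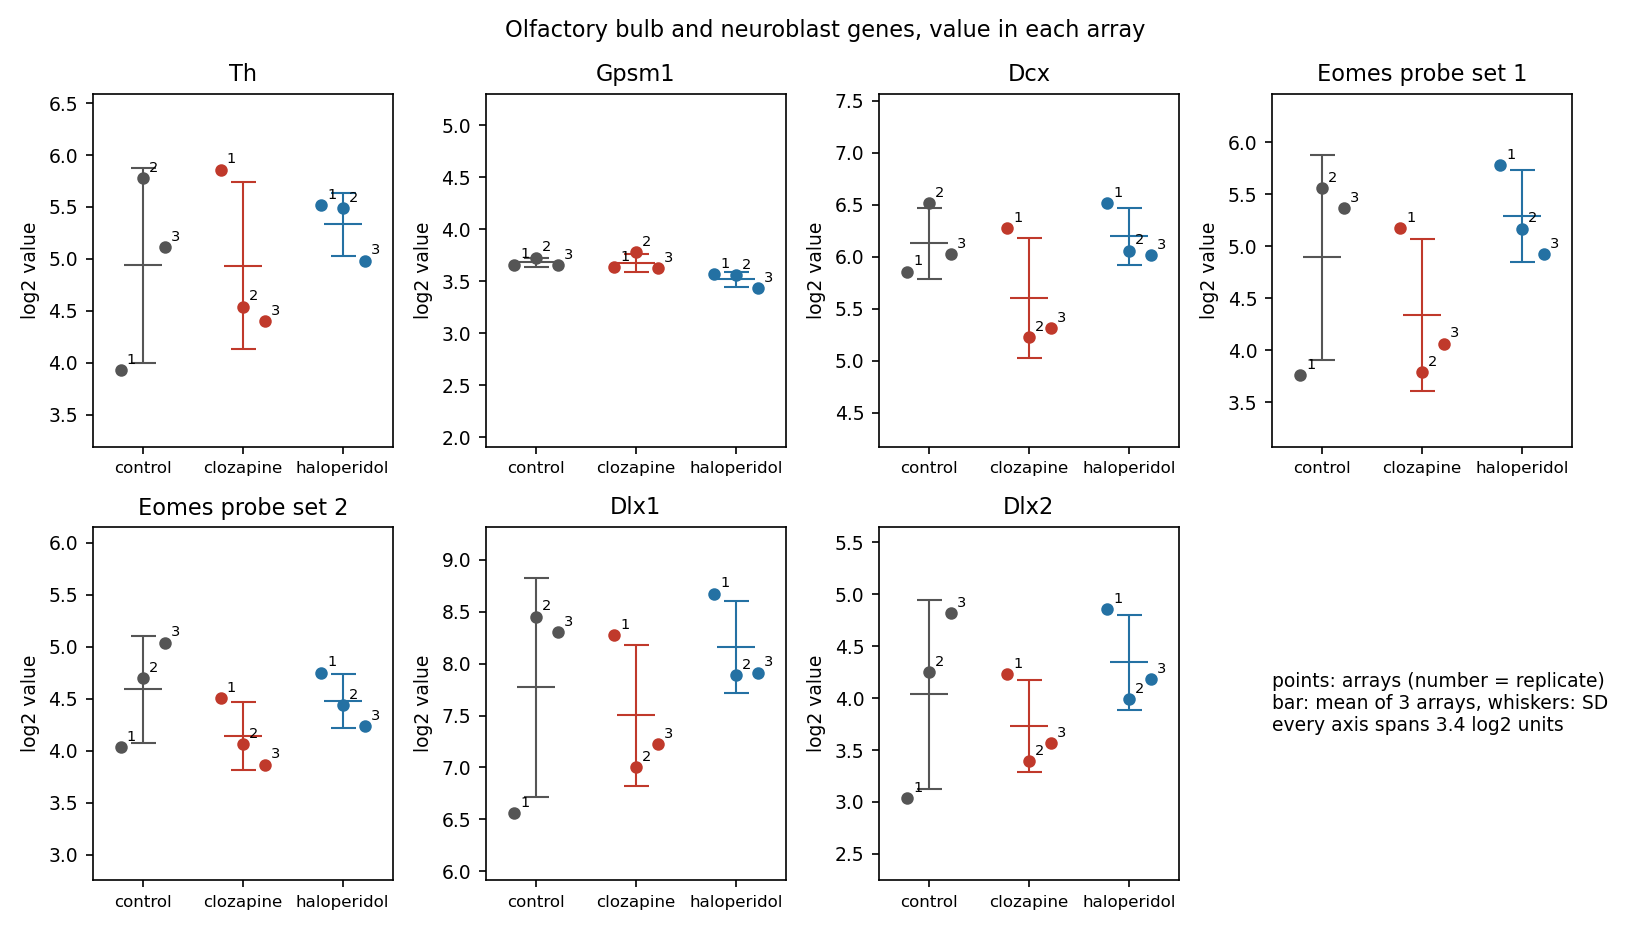
Log2 value of each member probe set (vertical axis, 3.4 log2 units in every panel) in each array by treatment (horizontal axis). Points are arrays with their replicate number, bars the mean of 3 and whiskers the SD. Control 1, clozapine 2 and clozapine 3 sit lowest in every panel but Gpsm1.

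The SD within treatments, pooled over the 3 groups, had a median of 0.196 log2 units over all tested probe sets and a 90th percentile of 0.458. Dlx1, at 0.768, Eomes probe set 1, at 0.753, Th, at 0.734, and Dlx2, at 0.641, lay above that percentile, and Dcx, at 0.421, Eomes probe set 2, at 0.382, and Gpsm1, at 0.0701, below it. Thus 4 of 7 member probe sets lay in the upper 10.0% of all. Against the 500 tested probe sets nearest in average value, Dlx2 lay at percentile 98.6, Eomes probe set 1 at 97.8, Dlx1 and Th at 96.6 each, Eomes probe set 2 at 90, Dcx at 81.8 and Gpsm1 at 25.2. The SD of Dlx2 was 5.40 times the median of its 500 neighbours, 0.119, and that of Dlx1 3.29 times the median of its own, 0.233. These ratios thus rest on unlike medians, the lower one being that of the weaker signal. Beside these values, the average of the 5 varying genes relative to the 9-array mean was -0.919 in control 1, -0.756 in clozapine 2 and -0.633 in clozapine 3. It lay between 0.0566, in haloperidol 3, and 0.722, in haloperidol 1, in the other 6 arrays. This order was not that of the first principal component, on which control 1, clozapine 1 and haloperidol 3 lay together at -19.6, -17.6 and -19.8 and clozapine 2 and 3 at 5.80 and 7.03.

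**Figure D2:**
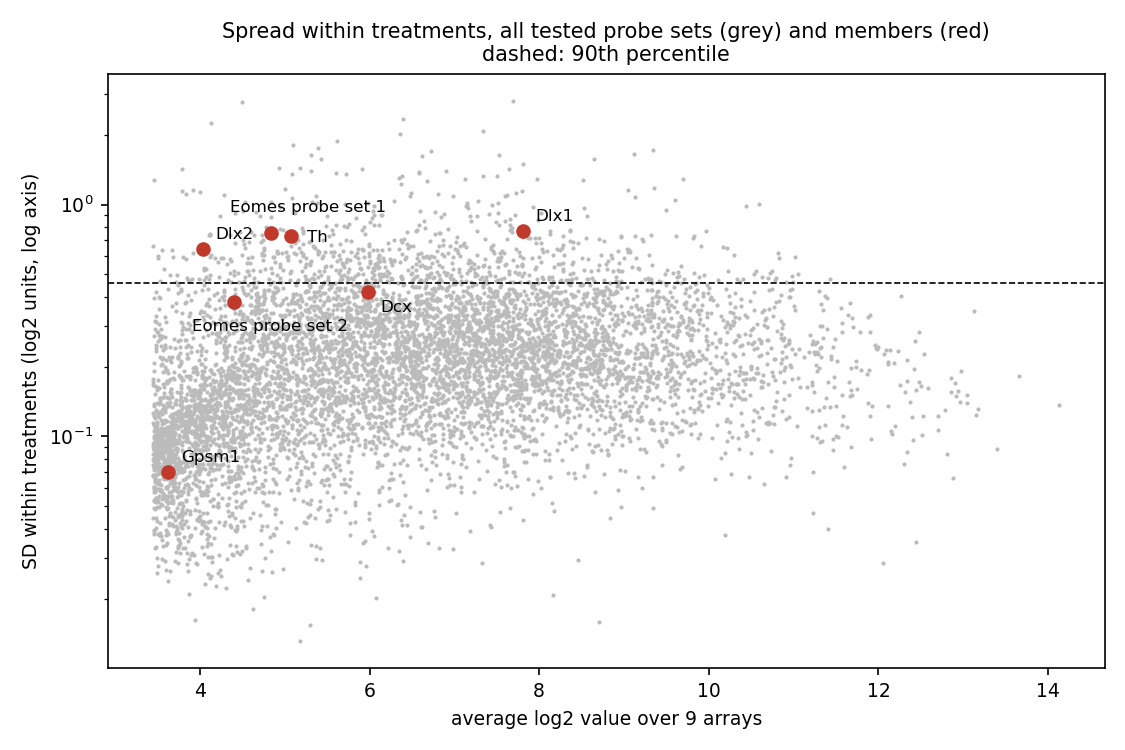
SD within treatments (vertical log axis, log2 units) against average log2 value over the 9 arrays (horizontal axis) for all 7453 tested probe sets in grey and the 7 members in red. The dashed line is the 90th percentile, 0.458, and 4 members lie above it.

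The first comparison asked whether clozapine changed these genes in the forebrain. The largest difference from the untreated animals was that of Eomes probe set 1, with a mean of 4.34 ± 0.73 (SD, n = 3) with clozapine and 4.90 ± 0.99 in the controls. That is -0.55 ± 0.54 (SE) with a 95% confidence interval from -1.79 to 0.68. Dcx lay at -0.53 ± 0.30 (-1.23 to 0.17), Eomes probe set 2 at -0.45 ± 0.28 (-1.09 to 0.19), Dlx2 at -0.30 ± 0.46 (-1.36 to 0.75) and Dlx1 at -0.27 ± 0.55 (-1.53 to 0.99). Th, at -0.0046, and Gpsm1, at -0.0025, had group means that were nearly equal. In all 7 member probe sets the clozapine and untreated arrays overlapped, and 3.43% of all tested probe sets had groups that did not. Clozapine 1 lay above control 1 in the 6 probe sets other than Gpsm1.

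Limma's test, adjusted by Benjamini-Hochberg over 7453 probe sets, called 0 of the 7 member probe sets and 0 of all (0%). At an unadjusted p under 0.05 it took 0 members and 70 of all (0.939%). All 7 members lay below the controls, with a median of -0.30, where 50.5% of tested probe sets did and their median was -0.0013. For Th, Gpsm1, Dlx1 and Dlx2 this direction rested on single animals. Gpsm1 was 0.021 without control 2 or without clozapine 1, and 0.025 without clozapine 3. Without control 2, Th was 0.42 and Dlx1 0.071, and without control 3 Th was 0.081 and Dlx2 0.088. Without clozapine 2 or clozapine 3 Th was 0.19 or 0.26. Eomes probe set 1 ran from -1.12 without control 1 to -0.22 without control 2, Eomes probe set 2 from -0.73 without control 1 to -0.22 without control 3 and Dcx from -0.86 without clozapine 1 to -0.34 without control 2. With arrays weighted by their quality in the fit, the differences of Th, Dlx1 and Eomes probe set 1 were -0.74, -0.83 and -1.09, those of Dcx and Dlx2 -0.84 and -0.45 and that of Gpsm1 -0.058.

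The same question was asked of haloperidol, against the same 3 controls. The SD of the 3 haloperidol animals was below that of the controls in the 6 probe sets other than Gpsm1, which is described here with no test. Eomes probe set 1 had a mean of 5.29 ± 0.44 (SD, n = 3), Th 5.33 ± 0.30 and Dlx1 8.16 ± 0.45. Beside the control means of 4.90 ± 0.99, 4.94 ± 0.94 and 7.77 ± 1.05, the differences were 0.40 ± 0.54 (SE; 95% confidence interval -0.84 to 1.63), 0.39 ± 0.52 (-0.81 to 1.60) and 0.39 ± 0.55 (-0.87 to 1.65). Dlx2 lay at 0.31 ± 0.46, Dcx at 0.065 ± 0.30, Eomes probe set 2 at -0.12 ± 0.28 and Gpsm1 at -0.16 ± 0.081. Gpsm1 was the 1 member whose haloperidol and untreated arrays did not overlap, beside 21.7% of all tested probe sets without overlap and 19.4% that lay below the controls without it. With arrays centred on their medians the Gpsm1 difference was -0.058, and with quantile normalization it was -0.040. Of the members 5 lay above the controls and 2 below, with a median of 0.31, where 53.6% of tested probe sets lay below.

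Limma called 0 of 7 members and 0 of all 7453 probe sets (0%), and 0 members and 680 of all (9.12%) had an unadjusted p under 0.05. The adjusted p of the members lay between 0.556 and 0.962. Leaving out control 1 alone turned 5 of the differences below 0: Dlx1 to -0.22, Dlx2 to -0.19, Eomes probe set 1 to -0.17, Th to -0.11 and Dcx to -0.072. Without haloperidol 3, the array with pituitary transcripts, Eomes probe set 2 was 0.0040.

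Set directly against haloperidol, clozapine gave lower means in the 6 probe sets other than Gpsm1. The doses differed, at 12 and 1.6 mg/kg/day. Eomes probe set 1 differed by -0.95 ± 0.54 (SE; 95% confidence interval -2.18 to 0.28), Dlx1 by -0.66 ± 0.55 (-1.92 to 0.60), Dlx2 by -0.61 ± 0.46 (-1.66 to 0.44) and Dcx by -0.59 ± 0.30 (-1.29 to 0.11). Th differed by -0.40 ± 0.52 and Eomes probe set 2 by -0.33 ± 0.28, while Gpsm1 was 0.16 ± 0.081 higher. Clozapine 1 lay inside the haloperidol range in 5 of these 6 and above it in Th, whereas clozapine 2 and 3 lay below all haloperidol arrays in all 6. Among all tested probe sets, 17.1% had clozapine and haloperidol arrays without overlap, 15.2% with clozapine the higher, and among the members Gpsm1 alone did. Its difference was 0.060 with arrays centred on their medians and 0.039 with quantile normalization.

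Limma called 0 of 7 members and 0 of 7453 probe sets (0%) between the drugs, and 0 members and 271 of all (3.64%) had an unadjusted p under 0.05. The lowest adjusted p of a member was 0.915. The median over the members was -0.59, with 6 of 7 lower with clozapine, beside 0.026 and 43.6% over all tested probe sets. Without clozapine 1 the differences were widest in the 6 probe sets other than Gpsm1, at -1.37 for Eomes probe set 1, -1.04 for Dlx1, -0.93 for Dcx, -0.86 for Th and for Dlx2 and -0.51 for Eomes probe set 2. They were narrowest at -0.40 for Dlx1 and -0.35 for Dlx2 without haloperidol 1, at -0.13 for Th and -0.19 for Eomes probe set 2 without clozapine 3 and at -0.67 for Eomes probe set 1 and -0.40 for Dcx without clozapine 2.

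**Figure D3:**
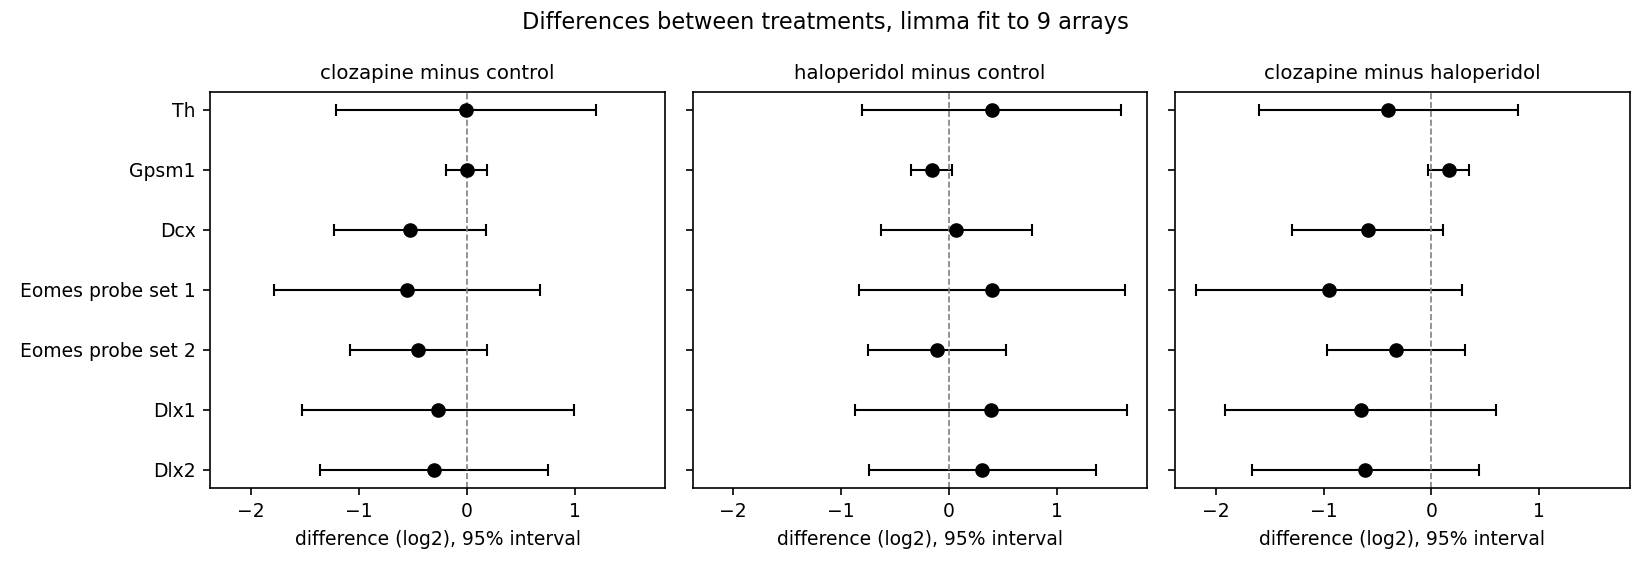
Difference between treatments for each member probe set (horizontal axis, log2 units), with 95% confidence intervals from limma's fit to 9 arrays. Every interval spans 0, and that of Eomes probe set 1 between the drugs runs from -2.18 to 0.28.

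Other genes of the bulb and its cells were read from lists chosen beside the members, 1 probe set per gene. No gene of these lists was called by limma in any of the 3 comparisons. Of 18 interneuron genes, 9 were tested. Of these, 7 lay below the controls with clozapine (median -0.12), 5 with haloperidol (median -0.037), and 9 of 9 lower with clozapine than with haloperidol (median -0.16). The list average relative to the 9-array mean was lowest in control 1, at -0.44, and clozapine 2, at -0.36, but -0.041 in clozapine 3. Pbx3, a homeodomain partner of Hox and Meis proteins, had the widest spread of the list, with an SD of 0.94 within treatments, from 8.03 in control 1 to 10.95 in control 3. That was its brightest probe set. Another probe set of Pbx3 differed, with control 3 the lowest control, at 4.60, and haloperidol 3 the highest array, at 5.98. Calb2, the calcium-binding protein calretinin, ranged from 6.67 in clozapine 2 to 8.40 in clozapine 1, and Dlx5 from 4.26 in clozapine 2 to 5.85 in haloperidol 1. Pax6 and Meis2, transcription factors of bulb interneurons, had a narrower range, 6.47 to 7.22 and 5.74 to 6.97. Trh, a peptide gene, was below the filter.

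Of 9 genes of bulb projection neurons 3 were tested. Reln, the secreted protein reelin, lay lowest in the same 3 arrays as the members, at 7.89 in control 1, 8.15 in clozapine 2 and 7.80 in clozapine 3, against 8.36 to 8.54 elsewhere. Tbr1, which cortical neurons also express, did not follow them: clozapine 3 and haloperidol 1 were highest at 11.22 each and haloperidol 2 lowest at 9.97. Cck ran from 9.62 in control 3 to 10.73 in control 1.

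Of 24 genes of neuroblasts and immature neurons 16 were tested, with medians of 0.043 for clozapine and 0.052 for haloperidol against the controls. Their average stayed within -0.044 and 0.046 of the 9-array mean, so the list as a whole did not follow Dcx. Cd24a, a surface protein of neuroblasts, was low in clozapine 2, at 5.53, and control 1, at 5.73, but at 6.19 in clozapine 3. Sox11, a transcription factor of young neurons, ran from 5.59 in control 1 to 6.65 in control 3, and St8sia4, which adds polysialic acid to Ncam1, from 6.12 to 7.38. Sox4, Dpysl3, Stmn2 and Nnat spanned 3.94 to 4.56, 4.54 to 4.83, 10.30 to 10.995 and 9.44 to 10.89. Of 14 progenitor and proliferation genes 7 were tested, and those with the widest spread were Sox2 (SD 0.50), Ccnd2 (0.37) and Pcna (0.29).

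Olfactory axon and ensheathing glia genes had 6 of 10 tested. Fabp7, a fatty acid-binding protein of radial and ensheathing glia, had values of 9.73, 10.53 and 10.74 in the controls, 10.61, 8.78 and 9.33 with clozapine and 10.99, 10.44 and 10.34 with haloperidol, so the same 3 arrays were lowest. Frzb, a secreted Wnt inhibitor, was lowest in clozapine 2 and 3, at 4.73 and 5.13, but higher in control 1, at 5.499. Npy, at 9.20 to 9.62, and Adcy3, at 4.91 to 5.51, showed no such order, and Omp, the marker of mature smell-sensing neurons, was at most 1.63. In the dopamine list, Drd2, the D2 dopamine receptor, ran from 4.81 to 5.72.

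Genes of all lists were also compared with the members by their pattern over the arrays. With the average of the 6 members as a reference, 41 of 5644 other genes (0.726%) had a Pearson r above 0.7 over the 9 arrays, as a description of arrays that share all processing. By the same measure 3 of 9 interneuron genes, 2 of 6 axon and ensheathing glia genes, 1 of 3 projection neuron genes and 1 of 16 neuroblast genes lay above 0.7. In the striatum, cortex and hippocampus, thalamus, hypothalamus and pituitary, cerebellum, choroid plexus, oligodendrocyte, astrocyte, progenitor and dopamine lists 0 did. Pts, in the dopamine list, reached 0.654. The lists were chosen with earlier results of these data known, so these counts are a description only. The striatal average lay within -0.101 and 0.099 of the mean, and that of cortex and hippocampus ran from -0.64 in control 3 to 0.36 in clozapine 1. Of the pituitary genes, Gh, Prl, Pomc, Cga and Tshb were high in haloperidol 3, and Lhb, at 0.786 there, lay within its range elsewhere. The part of any of these in the members' values was not tested.

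The 6 genes closest to the members' average were Ptpro, S100a5, Nmb, Fabp7, Scpep1 and Ahcyl1. Ptpro, a receptor-type tyrosine phosphatase, had the closest pattern (r = 0.965 and Spearman's rho = 0.967, and r = 0.966 without control 1 and clozapine 2, the arrays farthest from the median), with values of 7.07, 8.13 and 8.08 in the controls, 8.08, 6.84 and 7.35 with clozapine and 8.43, 7.77 and 7.88 with haloperidol. S100a5, a calcium-binding protein known from smell-sensing neurons, gave the widest separation, with r = 0.953, rho = 0.817 and r = 0.903 without those arrays. It had values of 2.74, 5.97 and 6.98 in the controls, 6.49, 2.89 and 2.70 with clozapine and 6.67, 5.60 and 5.80 with haloperidol. Its 3 low arrays were again control 1, clozapine 2 and clozapine 3, more than 2 log2 units below the rest, and its SD within treatments was 1.80. Nmb, the neuropeptide neuromedin B, ran from 3.75 to 3.95 in those 3 arrays and from 4.50 to 5.08 in the others. Scpep1, a serine carboxypeptidase, and Ahcyl1, a partner of the inositol trisphosphate receptor, had narrow ranges of 0.389 and 0.263 log2 units. The 3 genes with the most opposed pattern, Plekha7, Clip1 and Ap1ar, ranged over 0.194, 0.147 and 0.417.

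**Figure D4:**
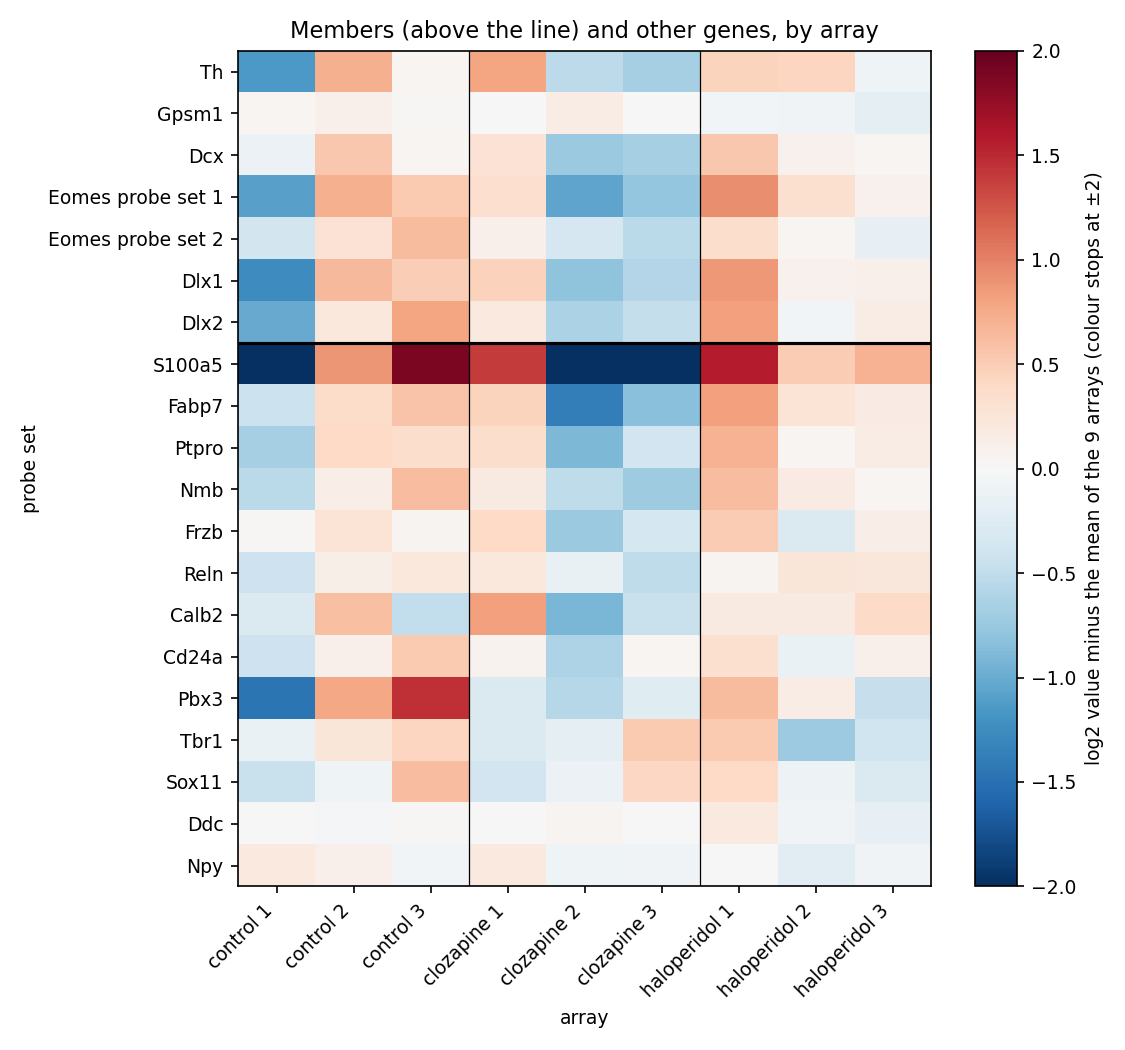
Log2 value minus the mean of the 9 arrays (colour, which stops at 2 in either direction) for the member probe sets above the line and other genes below it (rows), by array (columns). Control 1, clozapine 2 and clozapine 3 lie lowest for S100a5, Fabp7, Ptpro, Nmb and Reln as for the members other than Gpsm1, while Tbr1, Sox11, Ddc and Npy do not share that order. The colour is faint for Dcx in control 1, at -0.121, and for Reln in clozapine 2, at -0.153.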

How the data were processed

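Gene expression was measured in 9 forebrain samples, 3 per treatment, 1 animal per array. The deposited log2 values were made by the authors with GCRMA, which corrects background by probe sequence, normalises arrays to each other and summarises probe sets, per the submitters' processing notes. Its version was not given in the sources used here. GCRMA compresses unexpressed probe sets towards a floor, so low values understate change. Of 12488 probe sets, 66 were controls; of the other 12422, 10833 carried 1 gene symbol, 396 several and 1193 none, and 10817 of these took their present symbol from RefSeq (GRCm38.p6) by Entrez number. Tested were the 7453 whose 9-array average exceeded the 40th percentile, 3.45.

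Limma 3.58.1 in R 4.3.3 fitted 1 mean per treatment to 9 arrays (lmFit, eBayes; 6 residual degrees of freedom), two-sided, with Benjamini-Hochberg adjustment over 7453 probe sets and a threshold of 0.05. The fit was tested on simulated data. Genes named were all members, in each list every gene called and the 3 with the widest spread within treatments (given in the text for the bulb, neuroblast, progenitor, glia and dopamine lists) plus fixed markers, and the 6 genes most and 3 least like the members' average. Members and lists were chosen with earlier results of these data known. Replicate numbers were not taken as pairs of animals. Alternatives covered filter, scaling, floor, prior, array weights, samples in the fit, replicate block, a principal component covariate, a 0.10 threshold and each array left out.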

Additional observations from a re-analysis of the deposited data

Results flagged for a closer look

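In the lists read here, 5 probe sets below the filter exceeded every control by more than 3 log2 units in one treated array. That array was haloperidol 3 each time, and the genes were those of pituitary hormones. Gh was at 12.57 against at most 1.14 in the controls and Pomc at 10.31 against 2.30. The 2 probe sets of Cga were at 7.89 and 7.63 against 1.86 and 2.45, and Tshb was at 6.14 against 2.93. None of the 7 member probe sets was below the filter, and haloperidol 3 was the lowest of the 9 arrays in Gpsm1 alone.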

How the results depend on the processing

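The counts of probe sets and of members called stayed at 0 in all 3 comparisons under every alternative run, with limma's lowest adjusted p of a member at 0.105. Of 444 alternative values of member differences, 416 kept their direction and 28 did not. Many of the 416 could not turn, so the count is no measure of stability. The filter, the prior, the 0.10 threshold and a fit to only the arrays compared leave a difference as it was. So does leaving out an array of a group not compared. Each replicate number occurs in every treatment, so a block on it could not change a difference, and it called 0 probe sets in each comparison. Same-numbered arrays of different groups correlated from -0.597 to 0.697 in their deviations from the group means, with 3 of 9 pairs over 0.1, so the numbers were not taken as pairs. Arrays of different groups with unlike numbers ran from -0.660 to 0.661. The highest of these were clozapine 1 with haloperidol 3, at 0.661, and clozapine 3 with haloperidol 1, at 0.651. Control 1 with haloperidol 3 was at 0.638. Among same-numbered arrays the highest were clozapine 1 with control 1, at 0.697, and clozapine 2 with haloperidol 2, at 0.692. No block on such sets of arrays was fitted. For clozapine minus control, centring gave 0.0019 for Gpsm1, and the principal component covariate gave 0.035 for Th and 0.0054 for Gpsm1. For haloperidol minus control, array weights gave -0.34 for Th, -0.27 for Dcx, -0.17 for Eomes probe set 1 and -0.20 for Dlx1, and the floor at 4 gave -0.0095 for Dlx2. At that floor Gpsm1 had no value left. Without control 3 and haloperidol 3 together, chosen after seeing the data, clozapine minus control was 0.081 for Th and 0.088 for Dlx2, and haloperidol minus control was 0.23 for Eomes probe set 2. The cause of these turns was not tested.

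With each array left out in turn, clozapine minus control ran from -0.51 to 0.42 for Th, -0.053 to 0.025 for Gpsm1, -0.88 to 0.071 for Dlx1 and -0.80 to 0.088 for Dlx2. Haloperidol minus control ran from -0.11 to 0.81 for Th, -0.094 to 0.26 for Dcx, -0.17 to 0.73 for Eomes probe set 1, -0.40 to 0.11 for Eomes probe set 2, -0.22 to 0.73 for Dlx1 and -0.19 to 0.70 for Dlx2. No difference between the drugs turned. The count of member probe sets in the upper 10.0% of spread ran from 4 to 5. It was 6 with no filter and with the principal component covariate, 5 with the filter at the 20th percentile, with array weights and with the replicate block, 3 with the floor at 4, and 1 with the filter at the 60th percentile, where Dcx and Dlx1 were the members still tested.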

Other observations

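Beside the members, 31 probe sets had control 1, clozapine 2 and clozapine 3 as their 3 lowest arrays, 30 of them with 1 gene symbol. These genes were read after the order of the members was seen, so they are a description. After S100a5, Fabp7, Nmb and Ptpro, the widest steps between the 3 low arrays and the other 6 were those of a second probe set of Pbx3, from 5.40 to 5.72, of Reln and of Apcdd1, a membrane inhibitor of Wnt signalling, from 5.24 to 5.41. Gad1, the main enzyme of GABA synthesis, was among them with a small step, from 12.28 to 12.34. The bright Pbx3 probe set, by contrast, had clozapine 3, at 9.26, above haloperidol 3, at 9.04.

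The long antisense transcript Dlx1as, which overlaps Dlx1, was below the filter at 2.56 to 2.72. Dlx6, at 2.98 to 3.12, Dlx3, at 2.57 to 2.78, and Dlx4, at 2.39 to 2.59, were below it too, so Dlx1, Dlx2 and Dlx5 were the Dlx genes above the filter among those read here.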
